A study of Homo sapiens with 8 samples.

Results

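Chromosome 19 carries the largest group of human ZNF genes, which encode zinc finger proteins, and their transcripts were followed here across knockouts of 3 chromatin enzymes in HEK293T cells. Members were the protein-coding genes of chromosome 19 (GRCh38) whose symbol is ZNF followed by a number and, in some cases, a letter, with at least 10 counts summed over the 8 libraries. Of 247 such genes, 209 met the count minimum, out of 60617 genes in the counts table. RNA was measured by poly(A) RNA sequencing in 4 groups of 2 libraries each. The sgKDM5C, sgKDM6A and sgKMT2B groups are labelled as knockouts of the named gene, and the WT group as wild type. HEK293T is a line of human embryonic kidney cells that carries the SV40 large T antigen, and every group was grown in DMEM with fetal bovine serum and antibiotics. The labels give neither the edited position in each gene nor whether a knockout line is 1 clone or a pool, and they name no control guide for WT. They do not say that the replicates came from separate cultures either, so p-values cover the spread of these samples alone, and that spread may be technical.

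A C2H2 zinc finger is a short loop folded around a zinc ion, and a row of such fingers lets a protein read a stretch of DNA. Many ZNF proteins of chromosome 19 also carry a KRAB box, which recruits the corepressor TRIM28 and through it SETDB1, the enzyme that places the H3K9me3 mark, and many of them silence transposable elements. The genes arose by repeated duplication and lie in clusters, so neighbours are often close paralogs. KDM5C removes methyl groups from H3K4 and KMT2B adds them there, while KDM6A removes methyl groups from H3K27. Each comparison with WT therefore asks how the ZNF transcripts differ when 1 of these enzymes is targeted. Because paralogs are similar and no source used here gives the strand setting of the counting, the counts of close copies and of overlapping genes are uncertain.

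Total counts lay between 15868353 in WT replicate 2 and 27591724 in sgKDM6A replicate 2, and the other 6 libraries lay between 25062543 and 26701619. Each targeted gene was lowest in its own knockout. KDM5C averaged 321 CPM (reads relative to the library total after TMM scaling) in sgKDM5C and 456 CPM in WT, KDM6A averaged 10.9 CPM in sgKDM6A and 57.7 CPM in WT, and KMT2B averaged 69.3 CPM in sgKMT2B and 141 CPM in WT. KDM5C was also below its WT mean in the other knockouts, at 383 CPM in sgKDM6A and 393 CPM in sgKMT2B. KMT2B itself lies on chromosome 19 between clusters of ZNF genes. Of the markers of the line, PAX2, EMX2 and NEFL were present in every library and NEFH at 0.114 to 0.832 CPM, LHX1 was at 0.198 CPM or less, and NEFM was at 0.0788 CPM or less in the knockouts against 5.58 and 5.72 CPM in WT. Among 9 markers of other cell types, 6 stayed at 0.341 CPM or less in every library (PTPRC, CD3E, PECAM1, CDH5, COL1A2 and ALB), while LUM reached 2.09 CPM in sgKMT2B and EPCAM 3.35 CPM in WT. The part of these differences in the results below was not tested.

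Most ZNF genes of chromosome 19 gave few transcripts. The members together took 0.231% of all counts in both sgKDM5C libraries, 0.228% and 0.226% in sgKDM6A, and 0.268% and 0.265% in sgKMT2B, against 0.21% and 0.208% in WT. Both libraries of each knockout lay above both WT libraries, and both sgKMT2B libraries lay above all others. The median member was at 5.54 and 5.6 CPM in sgKDM5C, 5.99 and 6.4 CPM in sgKDM6A and 7.35 and 7.02 CPM in sgKMT2B, against 4.38 and 4.22 CPM in WT. In bulk RNA, a change in the number of cells that express a gene and a change in its RNA per cell cannot be told apart.

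A KRAB box was found in 178 of the 209 members, and the median member had 12 zinc fingers (range 0 to 31). Members with a KRAB box had lower levels than those without one. In WT the median was 0.685 CPM per kb of exon for members with a KRAB box and 5.95 CPM per kb for the 31 members without one. The 5 highest members per kb of exon in WT all lacked a KRAB box, and they were ZNF581 (63.6 CPM per kb), ZNF358 (39.5), ZNF580 (39.1), ZNF787 (30.3) and ZNF428 (27.0). ZNF317, at 14.9 CPM per kb, was the highest member with a KRAB box.

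The 38 ZNF genes below the count minimum were unevenly placed. Of these, 15 had 0 counts in all 8 libraries, the highest had 9, and the lowest members had 10 and 11. A KRAB box was found in 35 of the 38. In the cluster from ZNF101 to ZNF254 next to the centromere (chr19:19668796-24129961), 17 of 37 ZNF genes were below the minimum, 45.9%. Only 3 of 59 were below it in the cluster from ZNF628 to ZNF446 near the end of the long arm, 5.08%. ZNF93, whose protein is known to silence LINE-1 elements, had 1 count in all, and ZNF808, linked to pancreas development, had 0. ZNF91, whose protein is known to silence SVA elements, lies in the same pericentromeric cluster as ZNF93 and was a member, at 4.59 and 6.89 CPM in sgKDM5C, 6.22 and 10.7 CPM in sgKDM6A and 7.35 and 11 CPM in sgKMT2B, against 6.53 and 6.82 CPM in WT.

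**Figure D1:**
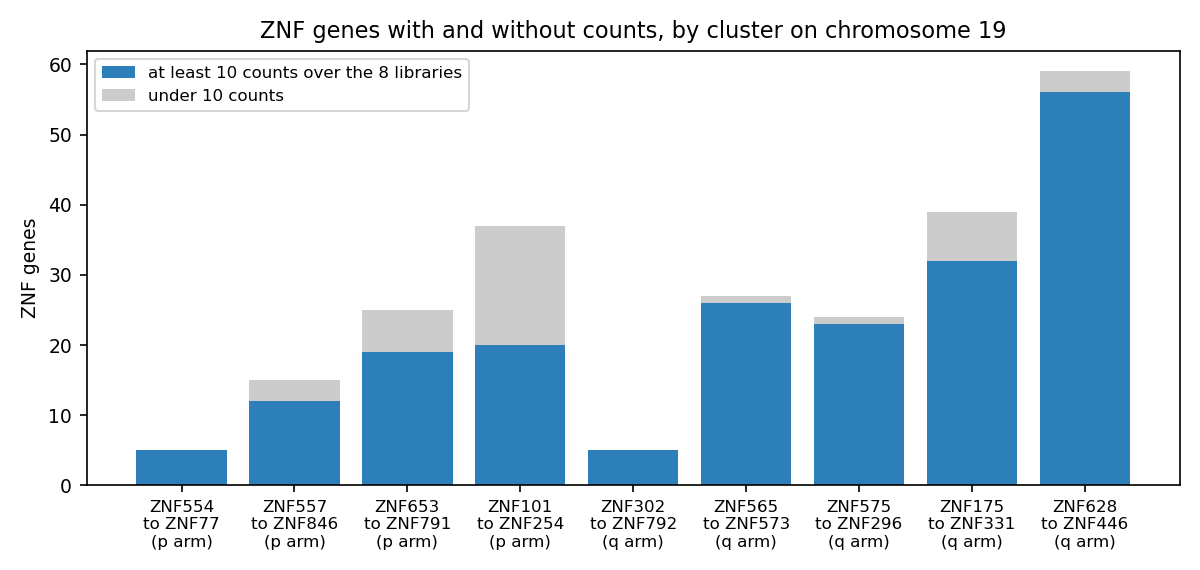
ZNF genes of chromosome 19 in each cluster of at least 5 genes, in chromosomal order, with the number that met the minimum of 10 counts over the 8 libraries (blue) and the number below it (grey). The cluster from ZNF101 to ZNF254 has 17 of 37 genes below the minimum, and that from ZNF628 to ZNF446 has 3 of 59.

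Of the 209 members, 195 passed the filter on low counts and were tested, 165 with a KRAB box and 30 without. The other 14 had 10 to 48 counts in all, and 13 of them had a KRAB box. Counts were tested with edgeR's quasi-likelihood test over all 17527 genes that passed the filter, and a gene was called at a Benjamini-Hochberg adjusted p under 0.05. All 3 comparisons with WT use the same 2 WT libraries.

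In sgKDM5C cells, a larger share of the members than of all genes was higher than in WT. Of the 195 members tested, 51 rose (26.2%) and 6 fell (3.08%), where 11.1% of all genes tested rose and 11.5% fell. The median log2 change was 0.41 for the members and 0.02 for all genes. Most of the increases were in the 165 members with a KRAB box, of which 47 rose and 2 fell, with a median of 0.47 and 126 positive changes. The 30 members without a KRAB box had 4 calls in each direction and a median of -0.03. Without WT replicate 2 the number of members that rose was 24, and without sgKDM5C replicate 1 it was 17.

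In sgKDM6A cells, the members again held many increases, and some members were down to 0 counts. Of the 195, 46 rose (23.6%) and 16 fell (8.21%), where 12.6% of all genes rose and 14.6% fell. The members' median log2 change was 0.32 and that of all genes 0.01. Of the 165 members with a KRAB box, 40 rose and 9 fell, with a median of 0.38. Without a KRAB box, 6 rose and 7 fell of 30, with a median of 0.02. The number that rose was 23 without WT replicate 2, 24 without sgKDM6A replicate 1 and 30 without sgKDM6A replicate 2, and the number that fell in those fits was 10, 8 and 9.

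In sgKMT2B cells, the increases were the most numerous. Of the 195 members, 99 rose (50.8%) and 6 fell (3.08%), where 13.7% of all genes rose and 14.5% fell. The members' median log2 change was 0.77 and that of all genes 0.00. Of the 165 members with a KRAB box, 93 rose (56.4%) and 0 fell, 155 had a positive change, and the median was 0.84. The 6 that fell all lacked a KRAB box, a class in which 6 of 30 also rose and the median was 0.06. Without WT replicate 2 the number that rose was 63, and without sgKMT2B replicate 1 it was 53, with 1 that fell.

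The shift of the KRAB members was seen in each knockout library. Against the mean of the WT libraries, the 2 sgKDM5C libraries had median log2 changes of 0.51 and 0.42, the sgKDM6A libraries 0.35 and 0.36 and the sgKMT2B libraries 0.88 and 0.71, while the WT libraries stood at 0.04 and -0.04. For members without a KRAB box, the sgKDM5C libraries had medians of -0.04 and -0.09, the sgKDM6A libraries 0.11 and -0.09 and the sgKMT2B libraries 0.05 and 0.17, against 0.01 and -0.01 in the WT libraries. The 823 other protein-coding genes of chromosome 19 that were tested had medians of -0.08 in sgKDM5C, -0.14 in sgKDM6A and -0.07 in sgKMT2B, below 0 in each. Of these, 63, 61 and 106 rose and 152, 198 and 161 fell in that order of knockouts. The 229 ZNF genes on other chromosomes had medians of 0.17, 0.21 and 0.24 in the same order, with 57, 55 and 70 that rose and 20, 20 and 15 that fell.

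**Figure D2:**
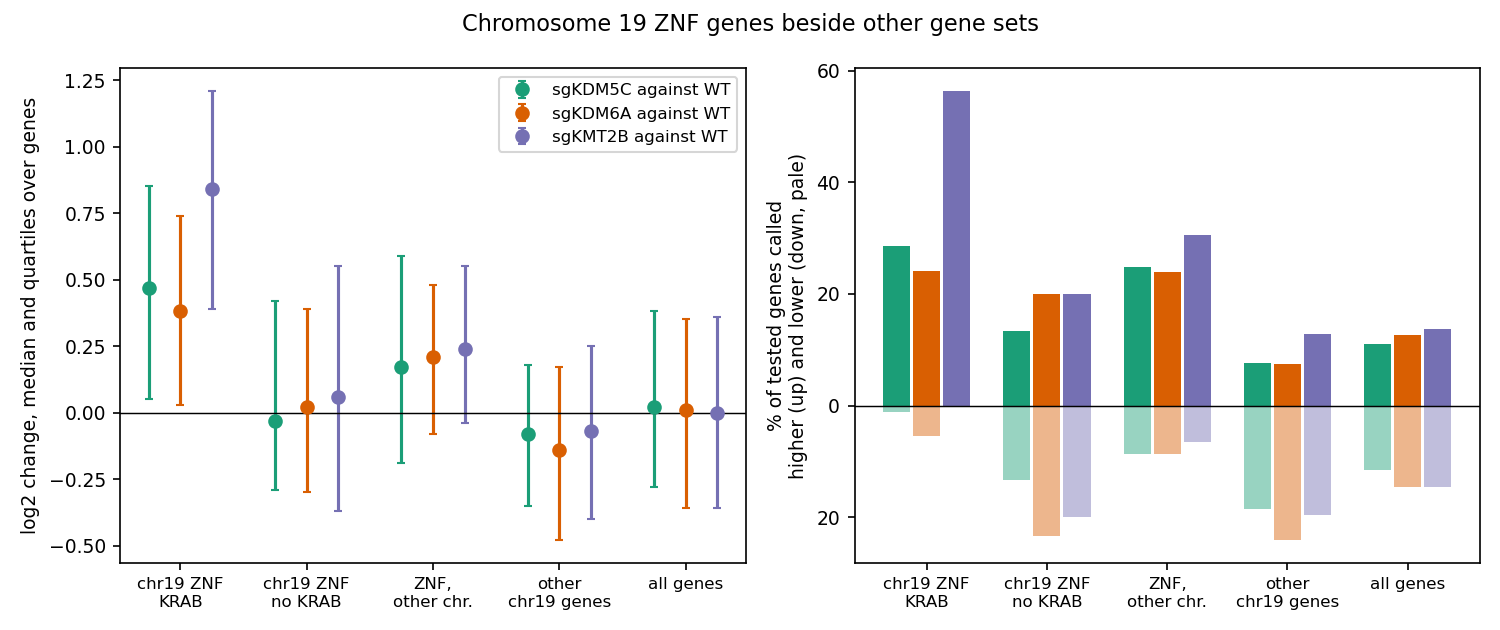
Left, median (points) and quartiles (bars) of the log2 change against WT over the tested genes of 5 sets; right, the percentage of each set called higher (upward) and lower (downward, pale). The KRAB members have medians of 0.47 in sgKDM5C, 0.38 in sgKDM6A and 0.84 in sgKMT2B. The members without a KRAB box lie near 0.

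The neighbours ZNF780B and ZNF780A, both with a KRAB box, were among the clearest increases. ZNF780B was at 5.14 and 4.96 CPM in sgKDM5C, 6.62 and 6.4 CPM in sgKDM6A and 5.83 and 5.12 CPM in sgKMT2B, against 1.2 and 1.43 CPM in WT. Every knockout library lay well above both WT libraries, though groups that did not overlap were a condition of the rule by which ZNF780B was named. Its log2 changes were 1.95 (SE 0.25, adjusted p = 0.000225), 2.32 (SE 0.25, adjusted p = 3.2e-05) and 2.07 (SE 0.25, adjusted p = 6.61e-05). ZNF780A was at 12.5 and 14.8 CPM in sgKDM5C, 11.6 and 11.8 CPM in sgKDM6A and 10.7 and 12.5 CPM in sgKMT2B, against 5.33 and 2.99 CPM in WT. Its log2 changes were 1.68, 1.45 and 1.44 (SE 0.23 each). Both genes were called in each comparison with WT in every fit that left out 1 library. ZNF546, the third gene of their cluster, rose in sgKDM6A (log2 1.15, SE 0.30) and in sgKMT2B (0.86, SE 0.30), and its 0.81 in sgKDM5C did not pass (adjusted p = 0.0687).

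ZNF181 and ZNF563 were also higher in every knockout library than in either WT library, in part a condition of the rule that named them. Both had their highest mean in sgKDM6A. ZNF181 was at 4.44 and 5.52 CPM in sgKDM5C, 7.53 and 6.15 CPM in sgKDM6A and 4.94 and 5.79 CPM in sgKMT2B, against 1.69 and 1.75 CPM in WT, with log2 changes of 1.53 (SE 0.26), 1.99 (SE 0.25) and 1.64 (SE 0.26). ZNF181 was called in each comparison with WT in every fit that left out 1 library. ZNF563 was near 1 CPM or above in the knockouts, at 1.06 and 0.87 CPM in sgKDM5C, 1.39 and 1.32 CPM in sgKDM6A and 1.29 and 1.18 CPM in sgKMT2B, against 0.33 and 0.26 CPM in WT. Its log2 changes were 1.66 (SE 0.49), 2.15 (SE 0.48) and 2.02 (SE 0.48). The sgKDM5C call was lost in 4 of the 8 fits that left out 1 library.

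In the cluster from ZNF575 to ZNF296 on the long arm, ZNF222 and ZNF235 rose in all 3 knockouts and had their highest mean in sgKMT2B. ZNF222 was at 1.57 and 1.78 CPM in sgKDM5C, 1.82 and 1.21 CPM in sgKDM6A and 3.01 and 2.25 CPM in sgKMT2B, against 0.702 and 0.39 CPM in WT. Its log2 changes were 1.55 (SE 0.43), 1.41 (SE 0.43) and 2.20 (SE 0.42). ZNF235 was at 3.97 and 1.74 CPM in sgKDM5C, 3.09 and 2.14 CPM in sgKDM6A and 3.21 and 4.1 CPM in sgKMT2B, against 1.07 and 0.52 CPM in WT. The sgKDM5C libraries of ZNF235 were far apart, though both lay above WT as the naming rule required. Its log2 changes were 1.77 (SE 0.45), 1.64 (SE 0.46) and 2.13 (SE 0.45). For both genes the sgKDM5C and sgKDM6A calls were lost without WT replicate 2, with adjusted p of 0.0926 to 0.139, and without replicate 1 of the same knockout, as was the sgKDM5C call of ZNF222 without sgKDM5C replicate 2. The sgKMT2B calls of both genes held in every fit that left out 1 library.

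**Figure D3:**
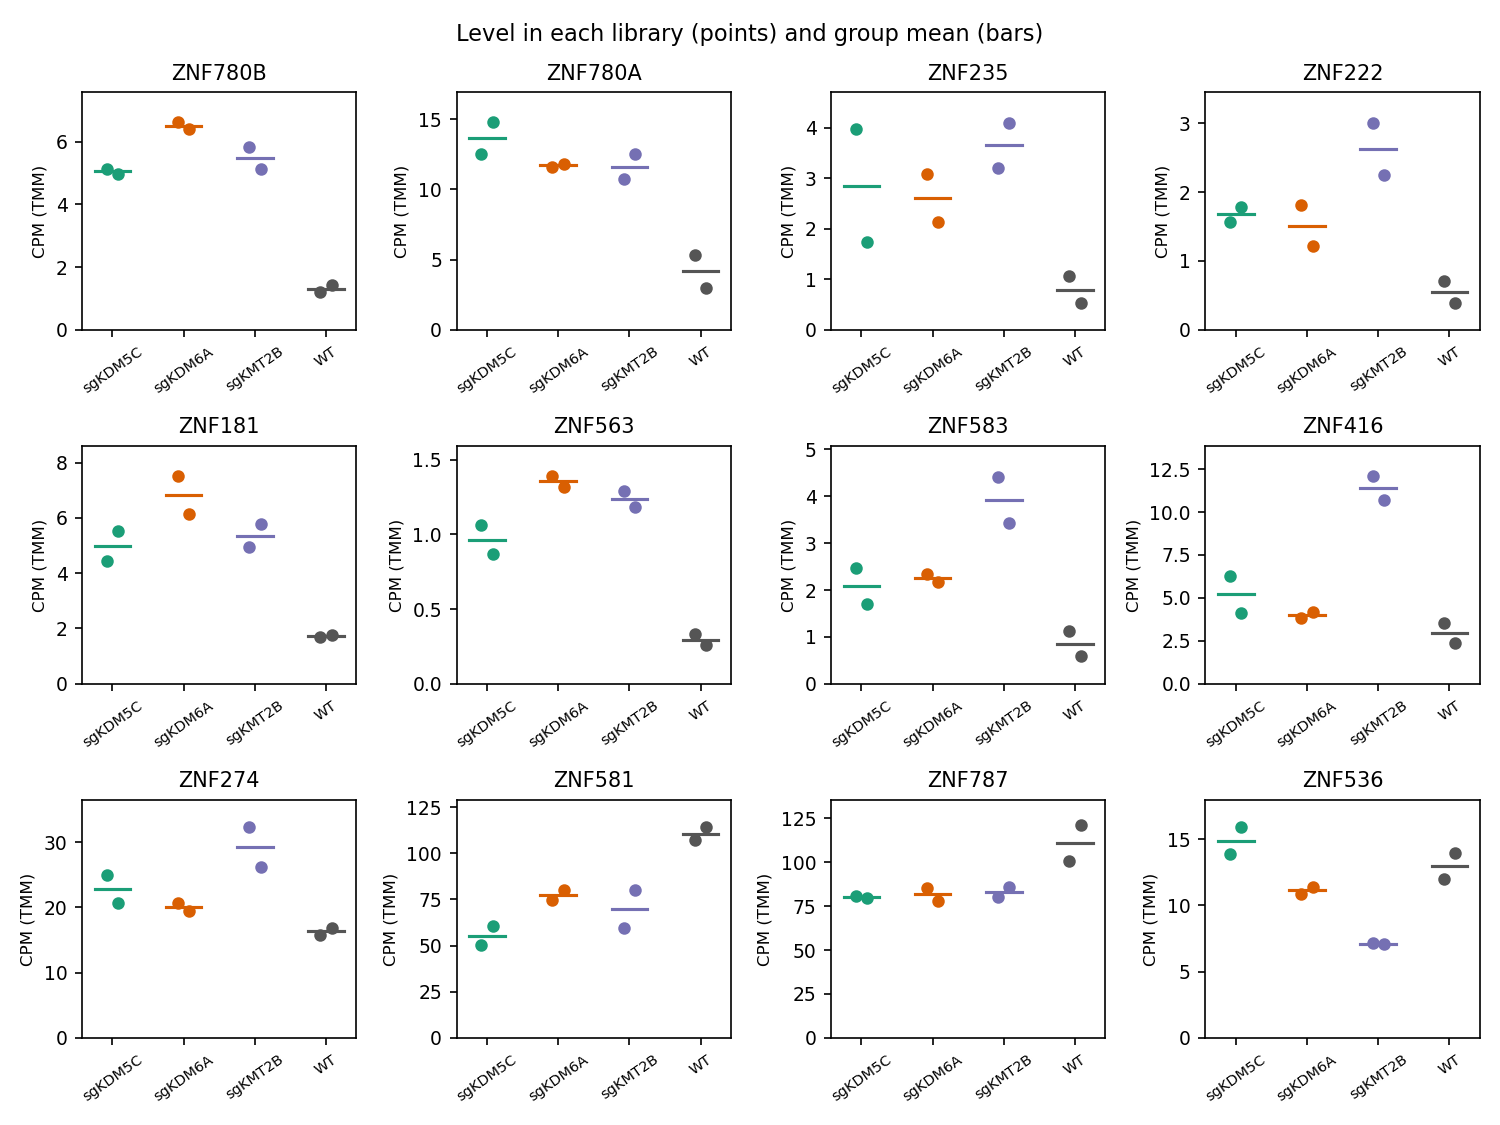
Levels of 12 members in each library (points, TMM-scaled CPM on linear axes from 0) with the group mean (bars). The upper 8 genes and ZNF274 rose in at least 1 knockout, and ZNF581, ZNF787 and ZNF536 are lower in at least 1 knockout. ZNF780B lies between 4.96 and 6.62 CPM in the knockouts and at 1.2 and 1.43 CPM in WT.

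Other increases were largest in sgKMT2B. ZNF583 was at 2.48 and 1.7 CPM in sgKDM5C, 2.34 and 2.18 CPM in sgKDM6A and 4.42 and 3.43 CPM in sgKMT2B, against 1.12 and 0.585 CPM in WT, with log2 changes of 1.24 (SE 0.38), 1.35 (SE 0.37) and 2.14 (SE 0.37). The sgKDM5C and sgKDM6A calls of ZNF583 were lost without WT replicate 2 and without replicate 1 of the same knockout. ZNF416 was at 12.1 and 10.7 CPM in sgKMT2B against 3.51 and 2.4 CPM in WT (log2 1.92, SE 0.26, adjusted p = 0.000155). It had 6.3 and 4.12 CPM in sgKDM5C (log2 0.79, adjusted p = 0.0451) and 3.85 and 4.18 CPM in sgKDM6A (log2 0.42, adjusted p = 0.269), and the sgKDM5C call was lost in 4 of the 8 fits that left out 1 library. ZNF471 was at 1.89 and 1.1 CPM in sgKMT2B against 0.454 and 0.195 CPM in WT (log2 2.11, SE 0.58, adjusted p = 0.0152), a call that was lost without WT replicate 2 and without sgKMT2B replicate 1. Its sgKDM5C and sgKDM6A libraries, between 0.238 and 0.656 CPM, did not differ from WT by the test.

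ZNF331, an imprinted gene, rose in sgKDM5C and sgKDM6A. It was at 2.55 and 2.61 CPM in sgKDM5C, 1.7 and 2.39 CPM in sgKDM6A and 1.77 and 1.66 CPM in sgKMT2B, against 0.909 and 0.78 CPM in WT. All knockout libraries lay above WT, in part a condition of the rule by which ZNF331 was named. Its log2 changes were 1.59 (SE 0.35, adjusted p = 0.00616), 1.26 (SE 0.35, adjusted p = 0.0178) and 1.0 (SE 0.36, adjusted p = 0.0521). The sgKDM6A call was lost without WT replicate 2 and without sgKDM6A replicate 2. ZNF274, which binds the 3′ ends of other ZNF genes and helps to place H3K9me3 there, was at 24.9 and 20.7 CPM in sgKDM5C, 20.6 and 19.4 CPM in sgKDM6A and 32.3 and 26.2 CPM in sgKMT2B, against 15.7 and 16.9 CPM in WT. It rose in sgKDM5C (log2 0.49, SE 0.15, adjusted p = 0.0365) and sgKMT2B (0.84, SE 0.15, adjusted p = 0.0013), and its 0.30 in sgKDM6A did not pass (adjusted p = 0.172). The sgKDM5C call of ZNF274 was lost in 3 of the 8 fits that left out 1 library.

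The overlapping genes ZNF540 and ZNF571 moved in opposite directions. ZNF571 lies on the minus strand inside the span of ZNF540, so reads of the 2 genes may have been exchanged in the counting. ZNF540 was at 1.2 and 1.74 CPM in sgKDM5C, 1.15 and 1.68 CPM in sgKDM6A and 1.49 and 1.1 CPM in sgKMT2B, against 0.372 and 0.52 CPM in WT, and rose in each (log2 1.74, 1.69 and 1.56). ZNF571 was at 2.33 and 2.69 CPM in sgKDM5C and 2.93 and 2.47 CPM in sgKDM6A, against 5.21 and 4.55 CPM in WT, and fell in both (log2 -0.96 and -0.86, SE 0.26 each). Its 3.74 and 4.69 CPM in sgKMT2B did not pass (log2 -0.22, adjusted p = 0.561). Each of these calls was lost in at least 2 of the 8 fits that left out 1 library.

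Decreases in all 3 knockouts came from members without a KRAB box near the start of the cluster from ZNF628 to ZNF446. ZNF581 was at 50.4 and 60.4 CPM in sgKDM5C, 74.7 and 80.1 CPM in sgKDM6A and 59.4 and 80.2 CPM in sgKMT2B, against 107 and 114 CPM in WT. Every knockout library lay below both WT libraries, in part a condition of the rule by which ZNF581 was named. The log2 changes of ZNF581 were -1.0 (SE 0.14, adjusted p = 0.0004), -0.51 (SE 0.14, adjusted p = 0.014) and -0.66 (SE 0.14, adjusted p = 0.00313). Its overlapping neighbour ZNF580, on the same strand, was at 96.2 and 87.8 CPM in sgKDM5C, 64.1 and 54.9 CPM in sgKDM6A and 63.9 and 76.7 CPM in sgKMT2B, against 101 and 109 CPM in WT. ZNF580 fell in sgKDM6A (log2 -0.82, SE 0.12) and sgKMT2B (-0.58, SE 0.12), and its -0.19 in sgKDM5C did not pass (adjusted p = 0.261). The sgKMT2B calls of both genes were lost without sgKMT2B replicate 1, with adjusted p of 0.0604 for ZNF581 and 0.0589 for ZNF580. The sgKDM6A call of ZNF581 was lost without WT replicate 2 and without sgKDM6A replicate 1. How the authors' counting assigned reads of the shared stretch was not given in the sources.

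ZNF628, ZNF787 and ZNF444 fell by less. ZNF628, known in mice as a gene needed for sperm formation, was at 26.7 and 26.6 CPM in sgKDM5C, 27.9 and 25.1 CPM in sgKDM6A and 27.8 and 32.4 CPM in sgKMT2B, against 41.6 and 37.8 CPM in WT (log2 -0.58, -0.58 and -0.40). ZNF787 was at 80.8 and 79.6 CPM in sgKDM5C, 85.6 and 77.8 CPM in sgKDM6A and 80.1 and 86.1 CPM in sgKMT2B, against 101 and 121 CPM in WT (log2 -0.47, -0.44 and -0.42). ZNF444 was at 54.4 and 55.4 CPM in sgKDM5C, 59.3 and 54.5 CPM in sgKDM6A and 51.6 and 55.3 CPM in sgKMT2B, against 69.8 and 71.4 CPM in WT (log2 -0.36, -0.31 and -0.40). All knockout libraries lay below both WT libraries for each of these genes, in part a condition of the rule by which they were named. The sgKDM6A call of ZNF444 was lost in each of the 8 fits that left out 1 library and its sgKDM5C call in 3, without WT replicate 2 or either sgKDM5C library. The sgKDM6A call of ZNF787 was lost without WT replicate 2 and without sgKDM6A replicate 2, and that of ZNF628 without sgKDM6A replicate 2. The sgKMT2B calls of all 3 genes were lost without sgKMT2B replicate 1, that of ZNF628 also without WT replicate 1 and without sgKMT2B replicate 2, and that of ZNF787 also without WT replicate 2.

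Some members changed in a single knockout or in opposite directions between knockouts. ZNF536, which restrains neuronal differentiation, was at 13.9 and 15.9 CPM in sgKDM5C, 10.9 and 11.4 CPM in sgKDM6A and 7.15 and 7.09 CPM in sgKMT2B, against 12 and 14 CPM in WT, and fell in sgKMT2B (log2 -0.86, SE 0.17, adjusted p = 0.00202). ZNF317 was at 66.1 and 53.2 CPM in sgKDM5C, 72.7 and 71.6 CPM in sgKDM6A and 96.5 and 96.1 CPM in sgKMT2B, against 73.8 and 77.5 CPM in WT. It fell in sgKDM5C (log2 -0.34, SE 0.11) and rose in sgKMT2B (0.35, SE 0.11), though these calls were lost in 7 and 4 of the 8 fits that left out 1 library. ZNF317 differed by -0.69 between sgKDM5C and sgKMT2B (adjusted p = 0.000667), a call that held in every such fit.

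ZNF793 and ZNF329 fell in sgKDM6A and rose in sgKMT2B. ZNF793 was at 0.198 and 0.393 CPM in sgKDM6A and 4.3 and 4.18 CPM in sgKMT2B, against 1.4 and 2.14 CPM in WT, with log2 changes of -2.52 (SE 0.44, adjusted p = 0.00105) and 1.28 (SE 0.34, adjusted p = 0.0135). ZNF329 was at 2.22 and 2.25 CPM in sgKDM6A and 11.8 and 12.3 CPM in sgKMT2B, against 4.25 and 5.26 CPM in WT, with log2 changes of -1.08 (SE 0.24, adjusted p = 0.00505) and 1.35 (SE 0.22, adjusted p = 0.0006). Neither gene overlapped between these 3 groups, in part a condition of the rule by which both were named. The sgKMT2B call of ZNF793 was lost in 3 of the 8 fits that left out 1 library. In sgKDM5C they were near WT, at 1.93 and 1.55 CPM for ZNF793 and 5.32 and 3.94 CPM for ZNF329. Between sgKDM6A and sgKMT2B the log2 differences were -3.80 for ZNF793 (adjusted p = 1.77e-05) and -2.43 for ZNF329 (adjusted p = 5.87e-06).

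In sgKDM6A cells, several ZNF genes of the cluster from ZNF175 to ZNF331 (chr19:51571298-53580269) were down to 0 or 1 count in both libraries together. ZNF83 (ENSG00000167766) had 1 count over both sgKDM6A libraries and 190 over both WT libraries, a ratio of 255 with a 95% counting interval of 45.3 to 10100. ZNF160 (ENSG00000170949) had 0 counts in sgKDM6A and 64 in WT, at least 28.7-fold lower taking 3 counts over both libraries as the floor. ZNF525 (ENSG00000203326) had 0 counts in sgKDM6A and 66 in WT, at least 29.6-fold lower. In the other knockouts these genes were not lost, with 229 counts of ZNF83, 187 of ZNF160 and 135 of ZNF525 in sgKDM5C and 278, 196 and 99 in sgKMT2B. ZNF160 rose in sgKDM5C (log2 1.18, adjusted p = 0.0438) and in sgKMT2B (log2 1.34, adjusted p = 0.0202). Its sgKDM5C call was lost in 5 of the 8 fits that left out 1 library, and its sgKMT2B call without WT replicate 2 and without sgKMT2B replicate 1. The adjusted p values of the falls in sgKDM6A were 8.24e-07 for ZNF83, 0.000116 for ZNF160 and 6.37e-05 for ZNF525, and each of these 3 calls held in every fit that left out 1 library. The interval covers counting error only. Each bound allows for it in the group at 0 counts alone and takes the count of the other group as exact.

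Some weakly transcribed genes of the cluster also had 0 counts in sgKDM6A. ZNF880 had 0 counts in sgKDM6A and 10 in WT, at least 4.48-fold lower, with 32 in sgKDM5C and 50 in sgKMT2B. ZNF347 had 0 counts in sgKDM6A and 6 in WT, at least 2.69-fold lower, with 6 in sgKDM5C and 46 in sgKMT2B. These bounds take the WT counts of 10 and 6 as exact. The call of ZNF880 (adjusted p = 0.0165) was lost without WT replicate 2 and without either sgKDM6A library, and that of ZNF347 (adjusted p = 0.048) in all 8 fits that left out 1 library. ZNF528 and ZNF600, which did not pass the filter and were not tested, had 0 counts in sgKDM6A and 6 and 4 counts in WT. ZNF528 had 18 counts in sgKDM5C and 10 in sgKMT2B, and ZNF600 had 3 in each. Counts of ZNF600 were too low in every group to tell a loss from sampling. In all, 7 of the 32 members of this cluster had at most 1 count over the sgKDM6A libraries, and 8 of all 209 members had. Over all members the same number was 3 in sgKDM5C, 2 in sgKMT2B and 5 in WT.

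The silent genes in sgKDM6A were interleaved with genes that kept their level. ZNF611 (ENSG00000213020) is the next member after ZNF83 and was at 4.72 and 4.57 CPM in sgKDM6A against 3.64 and 4.94 CPM in WT (log2 0.13, adjusted p = 0.694). ZNF845 lies between ZNF347 and ZNF525 and was at 10.7 and 10.6 CPM in sgKDM6A against 9.34 and 6.43 CPM in WT (log2 0.42, adjusted p = 0.163). ZNF761 was at 5.99 and 6.79 CPM in sgKDM6A against 4.3 and 2.08 CPM in WT and rose (log2 0.96, SE 0.28, adjusted p = 0.0212). ZNF813 (ENSG00000198346) was at 5.99 and 5.72 CPM in sgKDM6A against 2.02 and 1.56 CPM in WT and rose more (log2 1.69, SE 0.33, adjusted p = 0.00256). ZNF813 was at 2.37 and 2.31 CPM in sgKDM5C and 0.884 and 1.93 CPM in sgKMT2B, so it was high in sgKDM6A alone among the groups, with differences of -1.32 between sgKDM5C and sgKDM6A and 2.05 between sgKDM6A and sgKMT2B. The difference between sgKDM5C and sgKDM6A was lost in 2 of the 8 fits that left out 1 library.

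**Figure D4:**
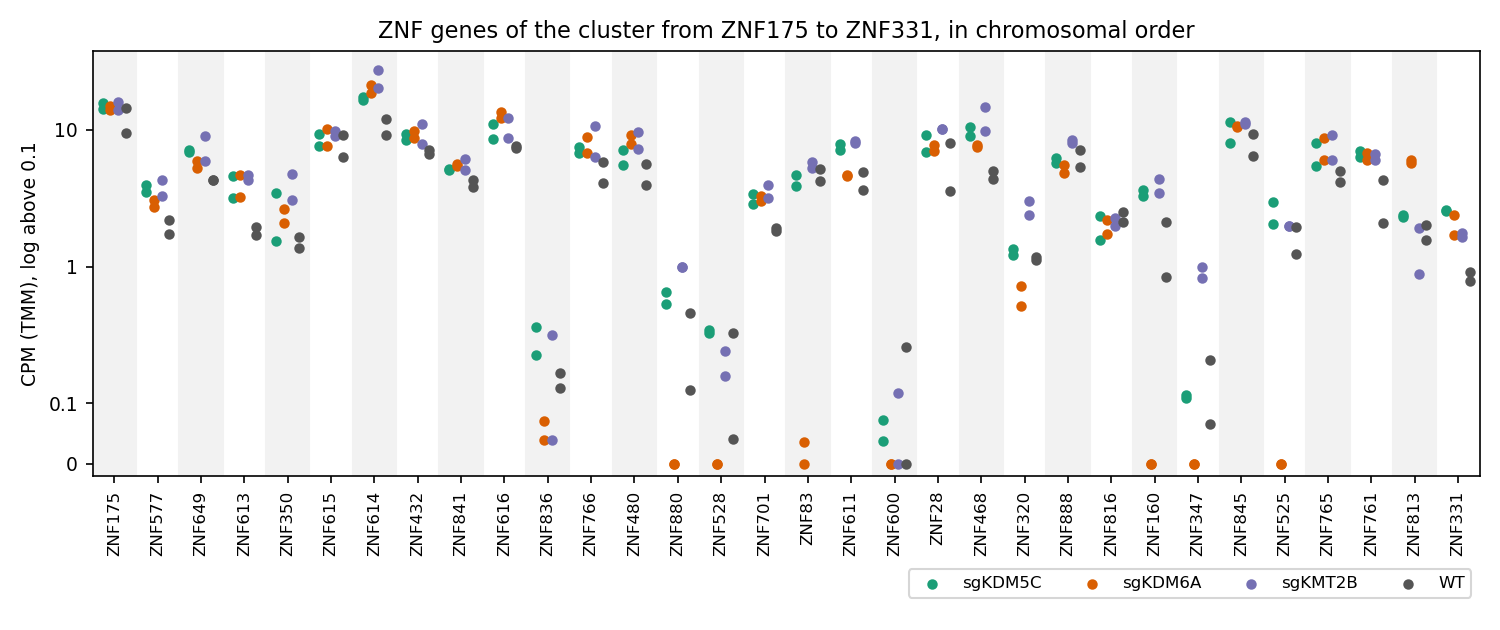
Levels of the 32 members of the cluster from ZNF175 to ZNF331 in each library (points, TMM-scaled CPM, log scale above 0.1 and linear below), in chromosomal order. In sgKDM6A, ZNF880, ZNF528, ZNF600, ZNF160, ZNF347 and ZNF525 lie at 0 in both libraries and ZNF83 has 1 count, between neighbours such as ZNF611 and ZNF845 that overlap or exceed their WT level.

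The upstream sequences of the lost genes and of kept neighbours are given so that they can be compared. Each is the 250 bases before the transcript start in RefSeq (GRCh38.p14), read along the gene's strand, with every CG in capitals. ZNF83 (chr19:52690497-52690746, minus strand), ZNF160 (chr19:53103423-53103672, minus strand) and ZNF525 (chr19:53365455-53365704, plus strand) were lost in sgKDM6A. ZNF611 (chr19:52735045-52735294, minus strand) and ZNF813 (chr19:53467483-53467732, plus strand) were not. The bases after the RefSeq start of ZNF813 were not found near the start of its GENCODE v29 transcripts, while those of the other 4 genes were.
ZNF83: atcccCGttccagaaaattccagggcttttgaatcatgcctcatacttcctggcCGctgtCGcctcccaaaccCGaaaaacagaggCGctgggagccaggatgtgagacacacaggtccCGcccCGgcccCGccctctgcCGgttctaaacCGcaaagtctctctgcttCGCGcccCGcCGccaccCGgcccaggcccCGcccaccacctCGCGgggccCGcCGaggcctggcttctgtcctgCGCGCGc
ZNF160: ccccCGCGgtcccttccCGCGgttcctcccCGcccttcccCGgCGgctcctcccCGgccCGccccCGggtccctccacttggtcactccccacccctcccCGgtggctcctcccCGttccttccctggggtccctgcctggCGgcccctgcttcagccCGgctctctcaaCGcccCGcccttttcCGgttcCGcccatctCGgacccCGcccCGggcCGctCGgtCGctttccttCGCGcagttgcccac
ZNF525: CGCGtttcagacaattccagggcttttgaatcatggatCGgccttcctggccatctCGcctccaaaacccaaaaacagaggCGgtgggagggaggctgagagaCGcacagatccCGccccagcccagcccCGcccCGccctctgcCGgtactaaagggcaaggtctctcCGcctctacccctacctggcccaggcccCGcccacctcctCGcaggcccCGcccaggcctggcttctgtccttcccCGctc
ZNF611: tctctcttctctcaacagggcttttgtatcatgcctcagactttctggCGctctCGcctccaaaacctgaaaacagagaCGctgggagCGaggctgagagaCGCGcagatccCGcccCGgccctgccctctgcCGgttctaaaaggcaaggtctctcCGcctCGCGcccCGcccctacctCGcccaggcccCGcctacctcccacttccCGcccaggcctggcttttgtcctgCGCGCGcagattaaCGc
ZNF813: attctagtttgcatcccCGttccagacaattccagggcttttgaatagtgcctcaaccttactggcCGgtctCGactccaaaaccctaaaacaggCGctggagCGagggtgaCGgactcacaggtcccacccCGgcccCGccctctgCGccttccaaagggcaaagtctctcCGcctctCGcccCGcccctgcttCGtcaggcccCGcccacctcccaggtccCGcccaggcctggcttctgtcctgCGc
The upstream sequences held 23 CG in ZNF83, 26 in ZNF160 and 15 in ZNF525, against 20 in ZNF611 and 16 in ZNF813. All 5 lay above the median of 11 over the 35116 promoters in the RefSeq table, so lost and kept genes were both rich in CG. The longest run of identical bases was 23 between ZNF83 and ZNF525, which were both lost, and 25 between ZNF525 and ZNF813, of which only ZNF525 was lost. ZNF160 shared no run over 11 bases with any of the other 4 sequences.

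In sgKMT2B, each cluster with at least 10 tested members held increases. Members were joined into a cluster where consecutive ZNF genes lay within 1000 kb, which gave 16 clusters. In sgKMT2B the median log2 change was 0.57 over 12 tested members from ZNF557 to ZNF846, 0.87 over 17 from ZNF653 to ZNF791, 0.46 over 17 from ZNF101 to ZNF254, 0.69 over 26 from ZNF565 to ZNF573, 1.0 over 22 from ZNF575 to ZNF296, 0.79 over 29 from ZNF175 to ZNF331 and 0.80 over 52 from ZNF628 to ZNF446. In sgKDM5C, in the same order of clusters, 1 of 12, 4 of 17, 0 of 17 and 2 of 26 rose. They were followed by 7 of 22, 9 of 29 and 21 of 52, where 11.1% of all genes rose. The differences between clusters were not tested. In the cluster from ZNF575 to ZNF296, 7, 4 and 13 members rose in sgKDM5C, sgKDM6A and sgKMT2B and 0 fell in each. The 18 other protein-coding genes inside its span had medians of -0.08, -0.30 and -0.27 there, below 0 where the ZNF genes were above it. The 19 other genes in the span from ZNF628 to ZNF446 had medians of 0.06, -0.03 and -0.04, beside ZNF medians of 0.49, 0.21 and 0.80. From ZNF557 to ZNF846, the 35 other genes had medians of -0.07, -0.29 and 0.02 beside ZNF medians of -0.16, 0.0 and 0.57, so in sgKDM5C the ZNF genes there were not above their neighbours.

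In sgKMT2B, both chromosome arms carried increases. On the short arm 21 of 52 tested members rose and 0 fell, with a median of 0.54, and on the long arm 78 of 143 rose and 6 fell, with a median of 0.84. The other protein-coding genes had a median of 0.10 on the short arm and -0.22 on the long arm, so the ZNF genes of the long arm stood further from their neighbours. In sgKDM5C 6 of 52 members rose (11.5%) and 1 fell on the short arm, and 45 of 143 rose (31.5%) and 5 fell on the long arm, with medians of 0.19 and 0.47. In sgKDM6A 8 of 52 rose (15.4%) and 2 fell on the short arm, and 38 of 143 rose (26.6%) and 14 fell on the long arm, with medians of 0.28 and 0.33. The shares that rose on the short arm were near those of all genes, 11.1% in sgKDM5C and 12.6% in sgKDM6A. The difference between the arms was not tested.

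**Figure D5:**
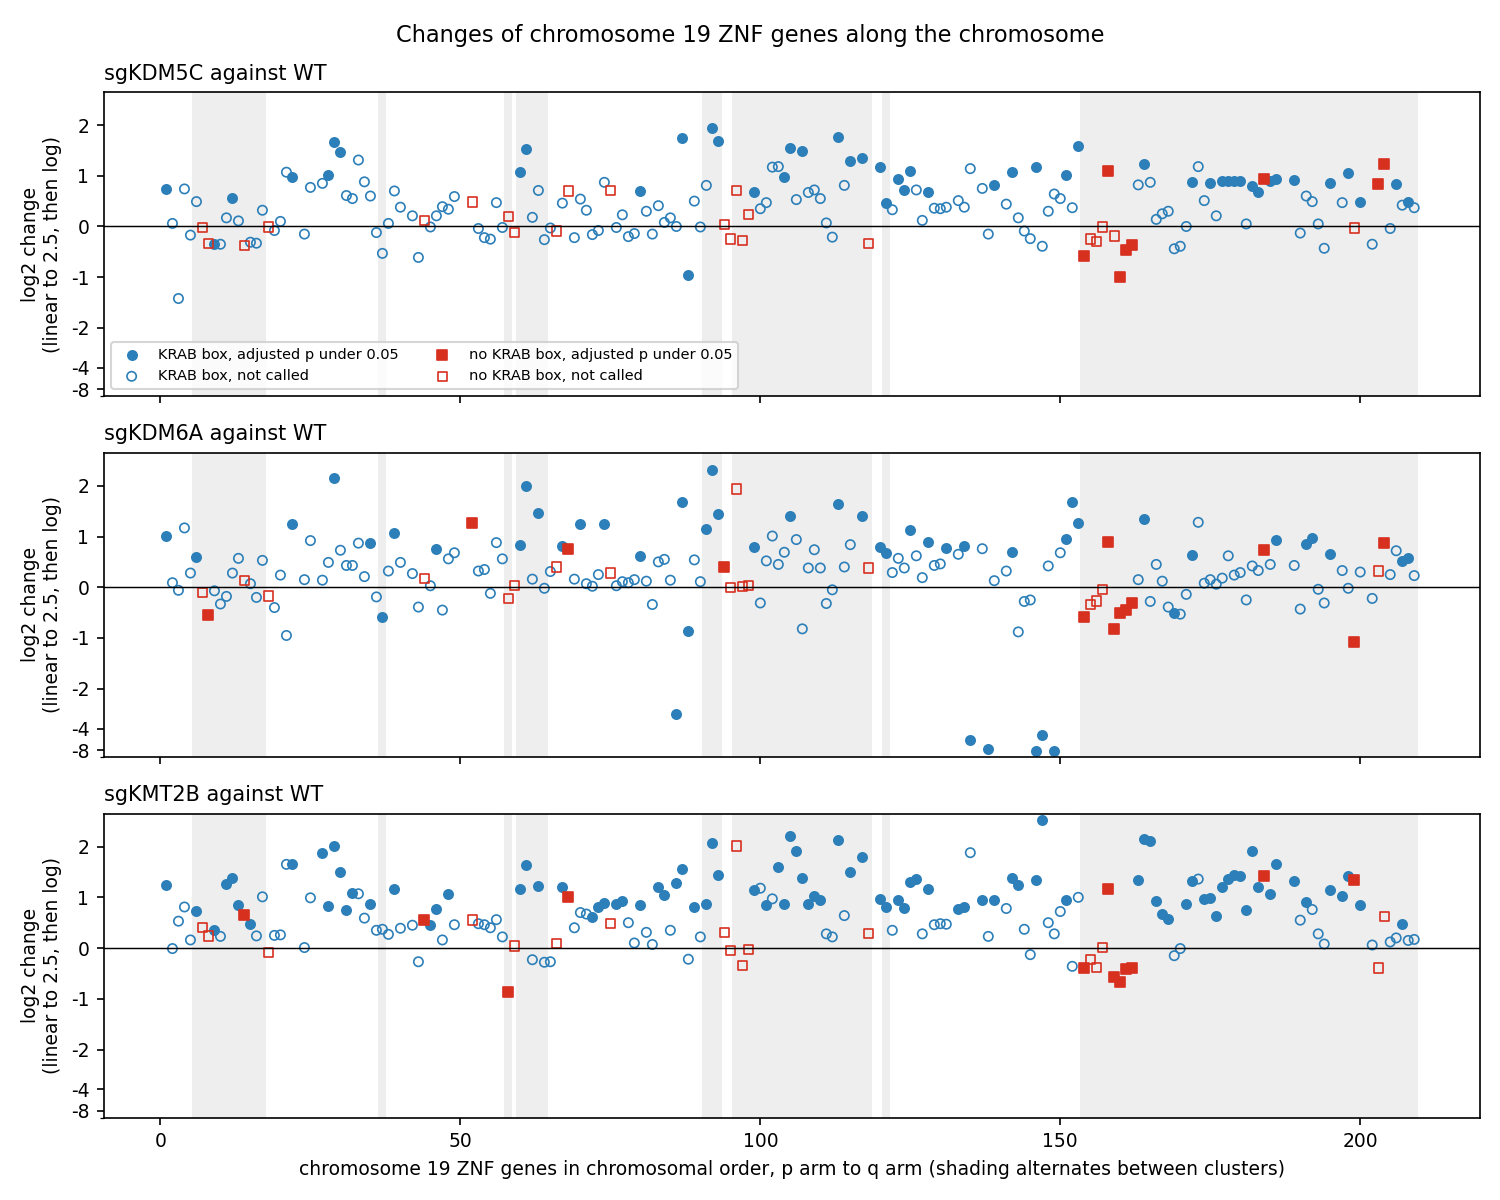
Log2 change against WT of each tested member in chromosomal order (linear to 2.5, then log), with the KRAB box marked by colour and shape, calls filled and clusters shaded in turn. In sgKMT2B most KRAB members lie above 0, and in sgKDM6A 5 members of the cluster from ZNF175 to ZNF331 lie far below 0; the fitted values of genes with 0 counts depend on the prior count and are not a measure of size.

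Several members with a known role were looked up for that role, without regard to the rule by which other genes were named. ZNF417 and ZNF587 are close paralogs that bind endogenous retroviruses, and they differed. ZNF417 rose in all 3 knockouts, at 8.05 and 7.49 CPM in sgKDM5C, 6.94 and 6.65 CPM in sgKDM6A and 9.16 and 9.77 CPM in sgKMT2B, against 4.38 and 4.22 CPM in WT (log2 0.85, 0.66 and 1.14, SE 0.19 each). ZNF587 was at 15.8 and 15 CPM in sgKDM5C, 13.8 and 19.7 CPM in sgKDM6A and 20.3 and 23.5 CPM in sgKMT2B, against 20.2 and 21.3 CPM in WT, and no comparison with WT passed (log2 -0.43, -0.31 and 0.08). ZNF473, which takes part in the 3′ processing of histone mRNA, rose in all 3 knockouts, at 30.4 and 29.4 CPM in sgKDM5C, 34.6 and 34.6 CPM in sgKDM6A and 41.2 and 34.3 CPM in sgKMT2B, against 21.8 and 21.4 CPM in WT (log2 0.47, 0.68 and 0.80, SE 0.13 each). ZNF350, a repressor that binds BRCA1, and ZNF224, a repressor of the aldolase A gene, rose in sgKMT2B (log2 1.36, SE 0.39, and 0.87, SE 0.26). Their changes in sgKDM5C (0.72 and 0.67) and sgKDM6A (0.62 and 0.38) did not pass. ZNF91 did not pass in any comparison with WT (log2 -0.22, 0.35 and 0.46). The calls of these genes were not recomputed with a library left out.

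Partners through which KRAB proteins silence DNA were also tested. Of 28 genes listed for this machinery, 27 were tested, and 6 rose and 0 fell in sgKDM5C, 9 rose and 2 fell in sgKDM6A, and 9 rose and 0 fell in sgKMT2B. Of all genes, 11.1%, 12.6% and 13.7% rose and 11.5%, 14.6% and 14.5% fell in the same order, and the median log2 change of the partners was 0.14, 0.09 and 0.17. The corepressor TRIM28, itself on chromosome 19, was at 1050 and 939 CPM in sgKDM5C, 1120 and 1070 CPM in sgKDM6A and 979 and 1010 CPM in sgKMT2B, against 1120 and 948 CPM in WT, with no call (log2 -0.05, 0.08 and -0.06, SE 0.09 each). SETDB1 was at 74.1 and 75.4 CPM in sgKDM5C, 87.0 and 88.1 CPM in sgKDM6A and 107 and 109 CPM in sgKMT2B, against 87.0 and 87.7 CPM in WT. SETDB1 rose in sgKMT2B (log2 0.30, SE 0.09, adjusted p = 0.0239), a call lost without either sgKMT2B library. TASOR, a scaffold of the HUSH silencing complex, rose in all 3 knockouts (log2 0.88, 0.43 and 0.76, SE 0.10 each), with 132 and 143 CPM in sgKDM5C, 102 and 98.5 CPM in sgKDM6A and 127 and 127 CPM in sgKMT2B, against 79.5 and 69.5 CPM in WT.

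Further partners rose. HDAC1, a histone deacetylase, rose by 0.57, 0.51 and 0.40 on the log2 scale in sgKDM5C, sgKDM6A and sgKMT2B (SE 0.09 each), and H3-3A, which encodes histone H3.3, by 0.49, 0.55 and 0.40 (SE 0.09 each). ATF7IP, which stabilises SETDB1, rose by 0.43, 0.28 and 0.52 (SE 0.10 each), and the sgKDM6A call of ATF7IP was lost in 7 of the 8 fits that left out 1 library. CBX5, which encodes the heterochromatin protein HP1 alpha, rose in sgKDM5C (log2 0.50) and sgKMT2B (0.67), and MORC2, a HUSH-linked ATPase, in sgKMT2B (0.58). SMARCAD1, a remodeller that binds TRIM28, rose in sgKDM5C (0.59) and sgKDM6A (0.90). In sgKDM6A, CHD3 (log2 -0.35), a subunit of the NuRD complex, fell. The sgKDM5C calls of ATF7IP, CBX5 and SMARCAD1 were lost without sgKDM5C replicate 1, and the sgKDM6A calls of TASOR and CHD3 without sgKDM6A replicate 1. Those of SMARCAD1 in sgKDM5C and CHD3 in sgKDM6A were also lost without WT replicate 2, and that of CHD3 without sgKDM6A replicate 2. DAXX was at 0.975 CPM or less in every library, and EHMT2, at 0.109 CPM or less, was not tested. Whether reads of DAXX and EHMT2 were lost in mapping or counting was not tested either.

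Compared with each other, the knockouts had the most member calls in the comparisons with sgKMT2B. Between sgKDM5C and sgKMT2B, 3 of 195 members were higher in sgKDM5C and 38 were lower (19.5%), where 11.6% of all genes were higher and 10.5% lower, and the members' median log2 difference was -0.30. The 3 higher were ZNF536 (log2 1.06), ZNF497 (1.23) and ZNF580 (0.39), none with a KRAB box, and the call of ZNF580 was lost in 3 of the 8 fits that left out 1 library. Of the members with a KRAB box, 32 of 165 were lower and 0 higher. Between sgKDM6A and sgKMT2B, 3 members were higher and 55 lower (28.2%) in sgKDM6A, where 12.4% of all genes were higher and 12.5% lower, and the median was -0.32. The 3 higher were ZNF813, ZNF497 (0.71) and ZNF536 (0.65), and the calls of ZNF497 and ZNF536 were lost in 5 and 3 of the 8 fits that left out 1 library. For sgKDM5C against sgKMT2B, the number of lower members was 21 without sgKDM5C replicate 1, 14 without sgKDM5C replicate 2, 13 without sgKMT2B replicate 1 and 20 without sgKMT2B replicate 2. For sgKDM6A against sgKMT2B, it was 35 without either sgKDM6A library and 27 without sgKMT2B replicate 1.

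Between sgKDM5C and sgKDM6A few members were called. In sgKDM5C, 14 of 195 were higher (7.18%) and 5 lower (2.56%), where 10.9% of all genes were higher and 8.86% lower, and the median log2 difference was 0.01. The higher genes included ZNF83, ZNF160, ZNF525 and ZNF880, which were lost in sgKDM6A, and ZNF793. ZNF296 was among the lower ones, at 9.54 and 10.2 CPM in sgKDM5C and 17.6 and 15 CPM in sgKDM6A (log2 -0.73, SE 0.17, adjusted p = 0.0089), as was ZNF121, at 23.0 and 33.0 CPM in sgKDM5C and 36.2 and 43.6 CPM in sgKDM6A (log2 -0.51, SE 0.16, adjusted p = 0.0364). Both calls were lost in 2 of the 8 fits that left out 1 library. The other 3 were ZNF813, ZNF581 and ZNF146, which was singled out after its values were seen. The number of lower members was 8 without WT replicate 1, 9 without WT replicate 2, 1 without sgKDM6A replicate 1 and 2 without sgKDM6A replicate 2.

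KRAB members are transcribed at a low level and have transcripts poor in G and C, so they were set beside genes alike in these properties. The bands of level and base composition were chosen after the data were seen. At a mean of 2 to 10 CPM over all libraries, 30 of 100 KRAB members rose in sgKDM5C, 26 in sgKDM6A and 62 in sgKMT2B. Of all genes in that band, 16.5%, 12.5% and 14.1% rose. At 10 CPM or more, 10, 10 and 20 of 38 KRAB members rose in that order of knockouts (26.3%, 26.3% and 52.6%), and 11.8%, 16.2% and 17.4% of all genes. The median transcript GC was 42.1% for KRAB members, 60.8% for members without a KRAB box and 48.8% for all genes. Among transcripts under 42% GC, 24.4%, 25.6% and 57.3% of 82 KRAB members rose, and 13.9%, 19.3% and 19.8% of all genes. Between 42% and 52% GC the shares were 32.9%, 21.5% and 55.7% of 79 KRAB members and 10%, 11.5% and 11.4% of all genes. The share of KRAB members was above that of all genes in each of these bands. ZNF genes on other chromosomes had like shares in sgKDM5C and sgKDM6A. At 2 to 10 CPM, 31.8%, 28.8% and 37.9% of 66 such genes rose in sgKDM5C, sgKDM6A and sgKMT2B, and under 42% GC 26.3%, 31.6% and 39.5% of 76 did. Their shares in these bands were thus at or above those of the KRAB members in sgKDM5C and sgKDM6A and below them in sgKMT2B. At 10 CPM or more, 24.0%, 22.0% and 28.7% of 150 such genes rose, below the KRAB members in each knockout. Between 42% and 52% GC, 27.1%, 24.7% and 28.2% of 85 rose, above the KRAB members in sgKDM6A alone. None of these differences was tested. Members without a KRAB box were few outside the band of at least 52% GC. In sgKMT2B, 3 of 7 under 42% GC rose (median log2 0.55) and 2 of 3 between 42% and 52% (median 1.35), where 1 of 20 at 52% or more rose and 6 fell (median -0.07). In sgKMT2B, the contrast with KRAB members was therefore not seen among the few members of like GC. Under 42% GC, 0 of 7 rose in sgKDM5C and 2 of 7 in sgKDM6A (medians 0.12 and 0.28). The KRAB medians there were 0.4 and 0.36. At 2 to 10 CPM, 2, 2 and 1 of 6 members without KRAB rose in sgKDM5C, sgKDM6A and sgKMT2B (medians 0.6, 0.3 and 0.52). KRAB medians were 0.49, 0.43 and 0.86. At 10 CPM or more, 2, 4 and 5 of 23 rose (medians -0.12, 0.0 and 0.01), beside KRAB medians of 0.32, 0.21 and 0.47. These differences were not tested.

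Across the 195 tested members, the log2 change had a Spearman rho with the log2 mean level of -0.47 in sgKDM5C, -0.26 in sgKDM6A and -0.47 in sgKMT2B, so that weakly transcribed members tended to have the higher changes in each. Pearson's r was -0.43, 0.05 and -0.51, and in sgKDM6A it takes in the fitted values of genes with 0 counts, which are not a measure of size. These correlations are across genes, which share the same libraries, and low counts also spread the changes more. With the number of zinc fingers Pearson's r was 0.07, 0.01 and 0.10. With the number of CG in the whole promoter sequence, which runs past the transcript start, Pearson's r over 175 members was 0.01, -0.10 and -0.12.

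Some short motifs were more or less frequent in promoters of the members than in all promoters. Of the 209 members, 187 had a promoter in the RefSeq table, and the 250 bases before the start were searched on both strands. CCGGAAG, the core bound by ETS factors, was found in 57 (30.5%), and in 8.52% of all 35116 promoters. CCAAT, the box bound by NF-Y, was found in 48.1% of members and 32.0% of all promoters. The TATA box, searched as TATAAA, was found in 2.14% of members and 10.7% of all promoters. CCGGAAG stood in 29.6% of the 81 KRAB members with a promoter that rose in sgKMT2B, and in 32.3% of the 65 that were tested and not called there. CCAAT stood in 45.7% and 61.5% of the same 2 sets, a difference that was not tested. Of the 30 members without a KRAB box that had a promoter, 23.3% held CCGGAAG and 26.7% CCAAT. Of the 29 ZNF genes below the count minimum that had a promoter, 41.4% held CCGGAAG and 69.0% CCAAT. Both motifs were thus no trait of the members alone. The motifs were chosen after the data were seen, none holds the letters of another, and a match says nothing of whether a factor binds. The median number of CG was 16 in members, 19.5 in members without a KRAB box and 11 in the 29 genes below the count minimum that had a promoter.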

How the data were processed

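The authors deposited raw read counts per Ensembl gene in 1 table with a column for each of the 8 libraries. Per the submitters' processing notes, HTSeq 0.11.2, STAR and the GRCh38 build (hg38) were used. The STAR version, the annotation release and whether counting used strand were not given in the sources used here. The labels' protocols describe poly(A) RNA, random hexamer priming and paired Illumina reads. Genes were placed by GENCODE v29, which held 58542 of the 60617 identifiers.

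Tests used the quasi-likelihood functions of edgeR 4.0.16 (R 4.3.3), fitted to all 8 libraries with a coefficient for every group, TMM factors (0.9652 to 1.0555) and filterByExpr by group. In each comparison, p-values over the 17527 genes were adjusted by Benjamini-Hochberg, and the procedure was tested on simulated data. Levels are TMM-scaled CPM. Chi-square values per degree of freedom between replicates were 7.88 to 15.8, above sampling noise, so each library was 1 replicate. For a group at 0 counts the fold is a bound that takes 3 counts over both libraries as the floor and the other group's count as exact. A group with 1 to 3 counts has a ratio with an exact 95% interval.

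Zinc fingers and the KRAB box (profile search, E-value at most 0.001) were found in the translated GENCODE v29 coding sequences, since no protein table was given. Promoters are from RefSeq. The members and lists were chosen with earlier results of these data known. The rule for named genes took, among members, up to 6 increases and 6 decreases per knockout against WT with a mean of at least 1 CPM and groups that did not overlap, up to 5 in each direction called alike in all 3 knockouts, up to 3 in each direction for each pair of knockouts, the 5 highest per kb of exon in WT, members with at most 3 counts in a group and at least 30 in another, and ZNF274. It also took TRIM28, SETDB1 and up to 4 called partners per knockout. Alternatives were other scaling, DESeq2 1.42.0, other filters, the groups compared alone, thinned libraries, a replicate block, each library left out, a minimum of 100 counts and centring on other chromosome 19 genes. Values of a few listed genes are not reported here.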

Additional observations from a re-analysis of the deposited data

How the results depend on the processing

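No called value of a named gene and no median that was recomputed under the alternatives changed direction. Among named genes, 105 values that were not called changed sign. Counts of calls have no direction, and they moved with the alternatives, as given below. The medians of the KRAB classes, clusters, arms and bands were not recomputed with a library left out. With the replicate number as a block, 10 members fell in sgKDM5C against WT, where 6 did without it. Over all genes, 4645 were called in that comparison with the block and 3969 without it. Each of the other comparisons also had more calls with the block. Replicate deviations correlated at -0.018 to 0.007 between WT and the knockouts, and at 0.083 to 0.182 between knockouts. Whether same-numbered libraries belong together was not tested. With upper-quartile factors, 3 members were lower in sgKDM5C than in sgKDM6A, where 5 were with TMM. With libraries thinned to the smallest total the median log2 change in sgKMT2B was 0.68. After subtraction of the median of other chromosome 19 genes the medians were 0.50 in sgKDM5C, 0.45 in sgKDM6A and 0.84 in sgKMT2B. Clusters numbered 24 with a gap of 500 kb and 16 with 1000 kb. The causes were not tested.

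With 1 library left out, the lone sample of its group was assumed to vary like the others. Members that rose against WT then numbered 17 to 51 in sgKDM5C, 23 to 48 in sgKDM6A and 53 to 102 in sgKMT2B, and those that fell 4 to 7, 8 to 14 and 1 to 6. The medians ran from 0.32 to 0.47, 0.29 to 0.36 and 0.64 to 0.80. Higher members numbered 10 to 14 in sgKDM5C against sgKDM6A, 2 to 4 in sgKDM5C against sgKMT2B and 1 to 4 in sgKDM6A against sgKMT2B, and lower ones 1 to 9, 13 to 43 and 27 to 60. Of 65 calls of named members against WT, 29 held in every such fit, and all 65 kept their direction. Over all alternatives, 298 values of called named genes lost the call and 2163 kept it, and 81 gained one. Depth left 14 members, with 10 to 48 counts in all, untested. WT replicate 2 was the shallowest library, and whether depth bears on the calls lost without it was not tested.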
